A study of Bos indicus with 6 samples.

Results

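The genes described are those that move bicarbonate and protons across membranes or interconvert carbon dioxide and bicarbonate: the carbonic anhydrases (CA), the bicarbonate transporters of the SLC4 family, the anion exchangers of the SLC26 family, the sodium-proton exchangers of the SLC9 family, and the subunits of the vacuolar proton pump (V-ATPase). They were taken by symbol alone, every row whose symbol begins with SLC4A, SLC9A or SLC26A and a digit, with ATP6V0 or ATP6V1, or consists of CA and a number with or without a closing A or B. This found 68 of the 24616 genes listed, namely 15 carbonic anhydrases, 9 SLC4 genes, 11 SLC26 genes, 11 SLC9 genes and 22 V-ATPase subunit genes. Of the SLC9 genes, SLC9A3R1 and SLC9A3R2 carry the family's symbol but encode scaffold proteins that hold transporters at the membrane, not transporters.

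Carbonic anhydrases hydrate carbon dioxide to bicarbonate and a proton, SLC4 and SLC26 proteins carry the bicarbonate across the membrane, and sodium-proton exchangers and the V-ATPase carry the protons. Oviductal fluid is rich in bicarbonate, which activates soluble adenylyl cyclase in sperm during capacitation and sets the pH around the early embryo. The V-ATPase acidifies lysosomes and endosomes in every cell, and in a few specialised epithelia it also pumps protons into the lumen.

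The samples were the isthmus, the oviduct segment next to the uterus, of 6 multiparous Nelore (Bos indicus) cows, each of which gave 1 RNA-seq library from the full wall of the oviduct on the side of the corpus luteum (CL). In the LF/LCL group (cows 617, 79 and 527) the treatment was meant to yield a large preovulatory follicle and a large CL, and in the SF/SCL group (cows 856, 489215 and 97) a small follicle and a small CL. All cows were pre-synchronized with a prostaglandin F2α analog (PGF) and a GnRH agonist, carried a progesterone-releasing device with estradiol benzoate given at its insertion, received PGF at and after its removal, were given a GnRH agonist to ovulate, and were sampled on day 4. LF/LCL cows had an additional PGF injection when the device was inserted, and their device was removed 42 h before GnRH, against 30 h in SF/SCL cows. The authors sequenced the top-ranked LF/LCL cows and the bottom-ranked SF/SCL cows, so the libraries stand for the extremes of each treatment. Expression is given as the normalised count, the number of reads of a gene divided by the size factor of its library. Values follow the order of cows 617, 79 and 527 for LF/LCL and 856, 489215 and 97 for SF/SCL. Because longer genes collect more reads and gene lengths were not available, levels are compared between cows but not between genes.

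The libraries held 23899117 to 34193164 uniquely mapped reads counted in genes, and 5476 genes had no such read in any of them. Cow 489215 stood apart from the other SF/SCL cows: the median residual SD of a gene was 0.435 log2 units with all cows, 0.420 to 0.478 without any other cow, and 0.185 without this cow. Results are therefore given with and without it. The cow was singled out by the spread of these same values, so smaller p-values without it partly follow from that choice. Its library had the lowest size factor, 0.7511 at 25472906 reads, against 0.9554 at 25652651 reads in cow 617. The part of this difference in the results below was not tested. Markers of the cell types of the wall also moved between cows. The summed fibroblast markers (7 of 7 genes found, 6 with an unadjusted p under the threshold of 0.05, higher in LF/LCL) ran from 402600 to 510000 in LF/LCL and from 198600 to 299500 in SF/SCL. The general epithelial markers (6 of 7 found, 4 past the same threshold, higher in SF/SCL) ran from 25080 to 37670 and from 41030 to 58060. Of these, KRT19 and CLDN4 overlapped between the groups. CLDN4 had 1074, 831 and 440 in LF/LCL and 344, 2167 and 457 in SF/SCL. Smooth muscle markers (8 of 8, 1 past the same threshold, higher in LF/LCL) summed to 785000 to 904500 in LF/LCL, and to 356900, 1266000 and 424700 in the SF/SCL cows. Not all of them followed this sum. MYLK and MYH11 were higher in every LF/LCL cow (8.6% of all genes), and LMOD1 in cow 489215 lay within the LF/LCL range. Ciliated markers (8 of 10) summed to 30090 to 38670 in LF/LCL and to 50620, 30190 and 55120 in SF/SCL, secretory markers (4 of 5) to 6484 to 26980 and to 278900, 8020 and 334400, and mesothelial markers (5 of 5) to 2469 to 3346 and to 26260, 3512 and 26910. In those 3 sums cows 856 and 97 were above every other cow and cow 489215 lay within or close to the LF/LCL range. OVGP1 made up most of the secretory sum of cows 856 and 97, at 271794 and 325158, and PAX8 was also highest there. LTF was highest in cow 79 and MUC1 in cow 489215. MSLN and WT1 led the mesothelial sum. LRRN4 was higher in every LF/LCL cow, at 283, 412 and 175 against 3.8, 5.3 and 16.3. UPK1B and UPK3B were high in cow 97 but not in cow 856. Of the ciliated markers, CAPS was highest in cow 617. Endothelial (5 of 6) and leukocyte (7 of 7) sums overlapped between the groups, at 11110 to 14610 against 9273 to 11630 and at 1966 to 3547 against 1843 to 3008. Erythrocyte markers (6 of 7) summed to no more than 26.6 in any cow. The genes HOXA10, HOXA11 and HOXA13, 3 of 5 uterine markers found, summed to 2094 to 2453 in LF/LCL and to 676, 6018 and 723 in SF/SCL, with HOXA13 at 0 in every cow. Ionocyte-type markers are given with the V-ATPase. The part of these cell types in the results below was not tested. In bulk tissue, fewer cells of a type and less RNA per cell cannot be told apart.

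Of the 68 genes, 57 passed the filter on low and variable genes, a mean above 5 normalised counts that also exceeded the SD over the cows. The mean was 5 or less for 8 (CA1, CA5A, CA6, CA7, SLC26A4, SLC26A9, SLC9A4 and ATP6V0D2), and 3 had a higher mean but an SD at or above it (SLC26A5, SLC4A8 and SLC9A2). Differences were tested with limma on log2(normalised count + 1) as SF/SCL minus LF/LCL, so that a negative log2 fold change is higher in LF/LCL. After Benjamini-Hochberg adjustment none of the 57 had a p-value under 0.05. The smallest adjusted p-value among them was 0.381, and over all 15387 genes tested the count was also 0 (0%). The edgeR quasi-likelihood test likewise gave 0, with 8 of the 57 genes at an unadjusted p under 0.05 (8.58% of all genes, 4.24% with LF/LCL above and 4.33% with SF/SCL above), and DESeq2 gave 1, SLC9A3R1. At an unadjusted p under 0.05, limma gave 8 of the 57 genes (14%), against 8.66% of all genes tested. Of these, 3 were higher in LF/LCL (5.26% of the 57, against 4.48%): SLC26A3, SLC4A5 and SLC9A5. The other 5 were higher in SF/SCL (8.77%, against 4.19%): SLC9A3R1, ATP6V0E1, ATP6V1E2, ATP6V1G3 and CA8. The groups did not overlap for 12 genes (21.1%, against 18.1% of all genes), 6 with LF/LCL above SF/SCL (8.6% of all genes) and 6 with SF/SCL above (9.51%). For a single gene taken alone, the smallest p-value that 3 cows against 3 can reach in an exact permutation test is 0.1. Adjusted p-values of the genes named below by the rule of the methods were lowest without cow 489215 and reached 0.999 under other alternatives.

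**Figure D1:**
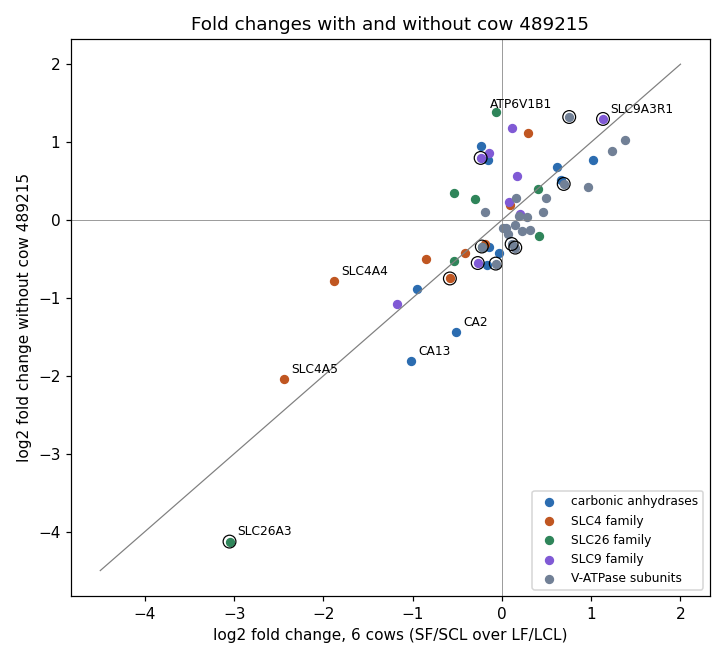
Log2 fold change (SF/SCL minus LF/LCL) of each gene tested, with all 6 cows on the x axis and without cow 489215 on the y axis, coloured by family, with a line of equal values and rings around genes with an adjusted p-value under 0.05 without that cow. SLC26A3 is at the lower left in both fits, at -3.05 and -4.13, while SLC9A8 crosses from -0.24 to 0.80.

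Median log2 fold changes were close to 0 over all 57 genes, at 0.05, as over all genes tested, at -0.02. They were -0.15 for the 11 carbonic anhydrases tested, -0.50 for 8 SLC4 genes, -0.26 for 8 SLC26 genes, 0.08 for 9 SLC9 genes and 0.19 for 21 V-ATPase subunits. Without cow 489215 the medians were -0.35, -0.42, 0.03, 0.57 and -0.01, with SLC4A8 added for 9 SLC4 genes and ATP6V0D2 for 22 V-ATPase subunits. The sign of the SLC26 median therefore rested on this cow, and the SLC4 median was negative in both fits. The V-ATPase median was close to 0 without this cow, and its sign was not compared over the same subunits. Leaving out another cow moved the carbonic anhydrase median up to 0.15 and the SLC9 median down to -0.16. Cow 489215 was the highest or the lowest of the 6 cows for 42 of the 57 genes (73.7%). It was the highest for 45.6% of them, against 36.7% of all genes tested, and the lowest for 28.1%, against 35.7%.

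**Figure D2:**
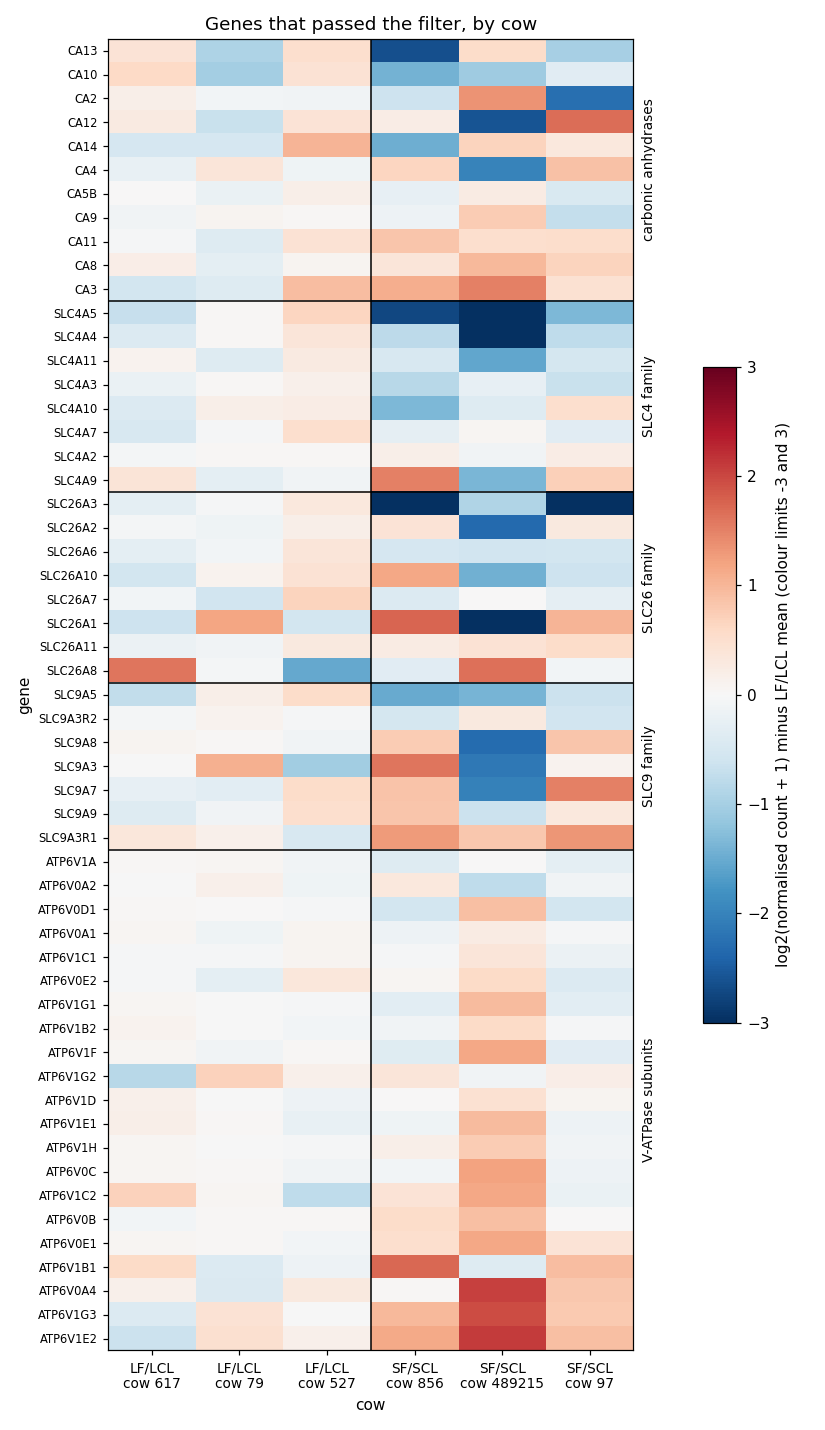
Expression of genes that passed the filter, shown per cow as log2(normalised count + 1) minus the mean of the 3 LF/LCL cows, with genes in rows by family, cows in columns and colours from blue (lower) to red (higher). The column of cow 489215 is strongly coloured in most rows, mostly higher for V-ATPase subunits and mostly lower for SLC4 genes.

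Among the carbonic anhydrases, the groups overlapped for every catalytically active enzyme that was tested, and 2 of the 3 inactive relatives, CA8 and CA11, were higher in each SF/SCL cow (9.51% of all genes). CA2, the fast cytosolic isozyme, had 4151, 3439 and 3418 normalised counts in LF/LCL and 2385, 9232 and 755 in SF/SCL. The LF/LCL cows were within a narrow range, with cows 856 and 97 below it and cow 489215 above it. The log2 fold change was -0.52 with all cows (SE 0.83, limma adjusted p = 0.907) and -1.44 without cow 489215, where the adjusted p-value was 0.0664. CA2 spread over SF/SCL by 4124 ± 4498 (mean ± SD, n = 3), against 3669 ± 417 in LF/LCL. CA13, another cytosolic isozyme, also had its highest SF/SCL value in cow 489215, with 999.6, 393 and 1060.2 normalised counts in LF/LCL and 120.0, 1098 and 373 in SF/SCL. The CA13 log2 fold change was -1.02 with all cows and -1.81 without cow 489215 (adjusted p = 0.0818), so neither gene passed the threshold in either fit. Smooth muscle markers also summed lower in cows 856 and 97 and highest in cow 489215, although MYLK, MYH11 and LMOD1 were not highest there. The part of smooth muscle in the CA2 and CA13 values was not tested. In RefSeq's annotation of the Bos indicus assembly NIAB-ARS_B.indTharparkar_mat_pri_1.0, which is not the assembly of the counts, CA2, CA3 and CA13 are neighbours, with 0 genes between CA2 and CA3 and 5 between CA2 and CA13.

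CA3, a cytosolic isozyme of low activity known from muscle, had 15.7, 17.8 and 45.7 normalised counts in LF/LCL and 50.9, 69.2 and 32.5 in SF/SCL, with overlapping groups and a log2 fold change of 1.02 (limma adjusted p = 0.689). CA1 and CA7, the remaining cytosolic isozymes, did not exceed 3.99 in any cow. The mitochondrial isozyme CA5B was even across the cows, from 112 to 147 in LF/LCL and from 94.3 to 153 in SF/SCL. The other mitochondrial isozyme, CA5A, was at 0 to 0.939 in 5 cows and at 27.96 in cow 489215.

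Among the isozymes that face the outside of the cell, CA9 had 180.0, 206 and 201 normalised counts in LF/LCL and 176, 330.2 and 119 in SF/SCL. CA14 had 215, 213 and 614 in LF/LCL and 109, 482 and 377 in SF/SCL. CA9 and CA14 are both transmembrane enzymes with an extracellular catalytic domain, and their groups overlapped. CA4, which is held to the membrane by a lipid anchor, ranged from 11.5 to 17.8 in LF/LCL and from 2.66 to 26.01 in SF/SCL, and CA12 from 2.82 to 7.03 and from 0 to 18.4. CA6, the secreted isozyme of saliva, did not exceed 1.76 in any cow. Limma log2 fold changes of the 4 membrane isozymes that were tested lay between -0.23 and -0.03 with all cows. Those of CA4, CA9 and CA12 were above 0 in edgeR and DESeq2. Without cow 489215 those of CA4 and CA12 were 0.77 and 0.95, and those of CA9 and CA14 stayed negative.

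CA8, CA10 and CA11 are related proteins that lack the residues needed to bind zinc and have no carbonic anhydrase activity. CA8, which binds the inositol trisphosphate receptor, had 2560.1, 1815 and 2349.6 normalised counts in LF/LCL and 2833, 4347 and 3510.3 in SF/SCL. Each SF/SCL cow was above each LF/LCL cow, with means of 2242 ± 384 and 3563 ± 758 (SD, n = 3 each). The log2 fold change was 0.66 (SE 0.23, limma adjusted p = 0.489), and 0.51 without cow 489215. CA11 was also higher in each SF/SCL cow, at 315, 248 and 439 in LF/LCL and 578, 459 and 470.4 in SF/SCL, with a log2 fold change of 0.62 (SE 0.28, limma adjusted p = 0.621). The third of these proteins, CA10, had 180.0, 58.2 and 161 in LF/LCL and 44.1, 55.9 and 93.2 in SF/SCL, and its groups overlapped. The general epithelial marker sum was likewise higher in each SF/SCL cow than in any LF/LCL cow, and its part in the CA8 and CA11 values was not tested.

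**Figure D3:**
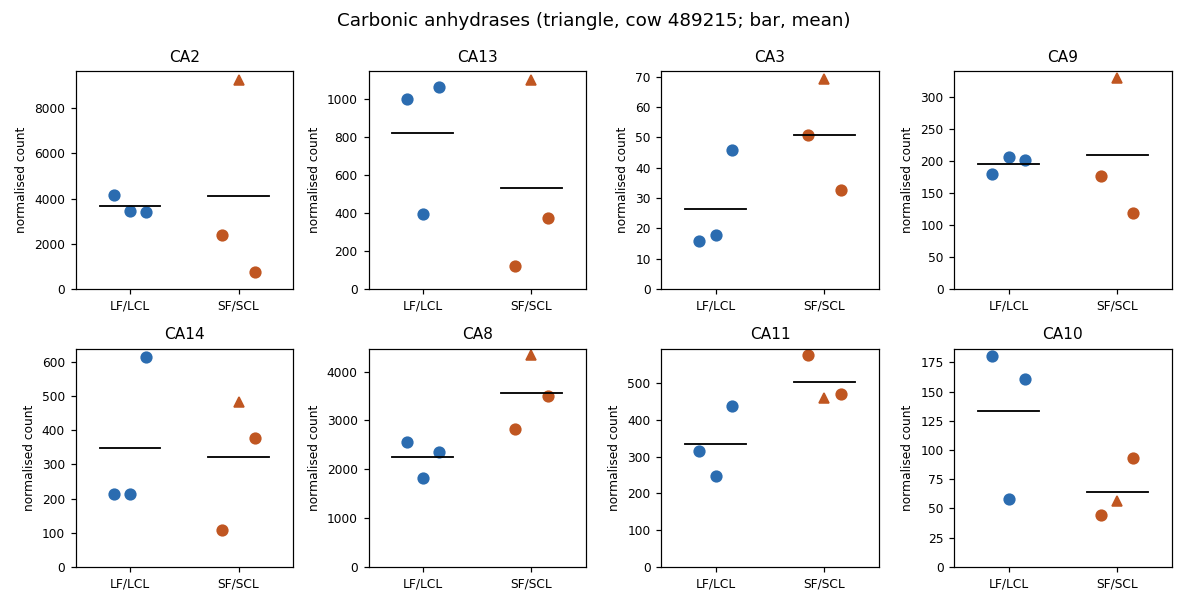
Normalised counts of 5 carbonic anhydrases and the 3 inactive relatives, 1 panel per gene on a linear axis from 0, with 1 point per cow, a triangle for cow 489215 and a bar at the mean of each group. CA8 and CA11 are higher in all 3 SF/SCL cows, while CA2 and CA13 are highest in cow 489215 and below the LF/LCL cows in cow 856.

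In the SLC4 family, 4 of the 8 genes tested had each LF/LCL cow above each SF/SCL cow, namely SLC4A3, SLC4A4, SLC4A5 and SLC4A11, against 8.6% of all genes. The sodium-coupled transporters carry bicarbonate with sodium, and 4 of these 5 genes passed the filter. SLC4A4, the electrogenic cotransporter NBCe1 that loads epithelial cells with bicarbonate, had 233, 318 and 401 normalised counts in LF/LCL and 179, 17.3 and 181 in SF/SCL. Every SF/SCL cow was below every LF/LCL cow, and cow 489215 was far below the others. For SLC4A4 the log2 fold change was -1.88 (SE 0.91, limma adjusted p = 0.647) with all cows and -0.78 without cow 489215 (adjusted p = 0.0784), so that the size but not the direction rested on this cow. Fibroblast markers also summed higher in every LF/LCL cow, and their part in the SLC4 genes was not tested.

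SLC4A5, the related electrogenic cotransporter NBCe2, had 12.6, 21.6 and 33.4 normalised counts in LF/LCL and 2.28, 1.33 and 7.59 in SF/SCL. The SF/SCL values stand for 3, 1 and 7 reads, so they are near the floor of 3 reads that a count of 0 allows in a library. The groups were separate, with a log2 fold change of -2.44 (SE 0.67, limma adjusted p = 0.410) and -2.05 without cow 489215. SLC4A7, the electroneutral cotransporter NBCn1, had 4035, 5426 and 7971 normalised counts in LF/LCL and 4600.0, 5823 and 4400.1 in SF/SCL, and its groups overlapped fully. SLC4A8, a sodium-driven chloride-bicarbonate exchanger, had 51.3, 49.7 and 38.6 in LF/LCL and 222, 2.66 and 98.6 in SF/SCL. Cows 856 and 97 were above all LF/LCL cows and cow 489215 was near 0, so the gene failed the filter on variability. Without cow 489215 it was tested and was higher in SF/SCL, with a log2 fold change of 1.66 (limma adjusted p = 0.0366). The same 2 cows had the highest ciliated, secretory and mesothelial marker sums, and the part of these cells in SLC4A8 was not tested. SLC4A10, the last of these transporters, was low, at 2.28 to 10.8 over all cows.

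Of the sodium-independent exchangers, which trade chloride for bicarbonate, SLC4A2 (AE2) differed little between cows. It had 2695, 2857 and 2872 normalised counts in LF/LCL and 3163, 2599 and 3253 in SF/SCL, a log2 fold change of 0.09 (SE 0.17, limma adjusted p = 0.915). SLC4A3 (AE3), an exchanger known from heart and brain, had 412, 483 and 527 in LF/LCL and 265, 397 and 296 in SF/SCL. Its groups did not overlap, with a log2 fold change of -0.58 (SE 0.25, limma adjusted p = 0.598). Without cow 489215 it was -0.75 with a limma adjusted p-value of 0.0261. SLC4A11, a membrane protein that conducts protons or hydroxide and not bicarbonate, had 35.6, 25.3 and 40.4 in LF/LCL and 23.5, 10.7 and 22.8 in SF/SCL, a log2 fold change of -0.85 (limma adjusted p = 0.697). SLC4A9, whose transport mode is debated, had 38.7, 23.5 and 27.2 in LF/LCL and 85.1, 10.7 and 48.8 in SF/SCL, so that cow 489215 was again the lowest. This cow was the lowest of the 6 for 5 of the 8 SLC4 genes tested (62.5%) and the highest for 0.

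The SLC26 gene with the largest difference was SLC26A3, the chloride-bicarbonate exchanger DRA of apical membranes. It had 63.8, 76.0 and 97.5 normalised counts in LF/LCL and 3.80, 41.3 and 3.25 in SF/SCL. The LF/LCL cows were all above the SF/SCL cows, and cow 489215 lay between them and cows 856 and 97, which had 5 and 3 reads. On the log scale cow 489215 was nearer to LF/LCL. The means were 79.1 ± 17.0 and 16.1 ± 21.8 (SD, n = 3 each), and the log2 fold change was -3.05 (SE 0.92, limma adjusted p = 0.437). Over the alternatives the adjusted p-value ran from 0.0027, without cow 489215 and with a log2 fold change of -4.13, to 0.999. In the same RefSeq annotation SLC26A4, the exchanger pendrin, is the near neighbour of SLC26A3 with 1 gene between them, and it had no more than 2.17 normalised counts in any cow.

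SLC26A6, the other chloride-bicarbonate exchanger of apical membranes, had 202, 233 and 319 normalised counts in LF/LCL and 174, 166 and 169 in SF/SCL. The SF/SCL cows were tightly grouped below the LF/LCL cows, with a log2 fold change of -0.54 (SE 0.28, limma adjusted p = 0.671) and -0.52 without cow 489215. The part of the fibroblast markers, also higher in every LF/LCL cow, in SLC26A3 and SLC26A6 was not tested. SLC26A11, a sulfate and chloride transporter, had 801, 844 and 1122 in LF/LCL and 1079, 1233 and 1329.8 in SF/SCL, with overlapping groups and a log2 fold change of 0.41. SLC26A2, a sulfate transporter, had 112, 108 and 134 in LF/LCL and 156, 22.6 and 144 in SF/SCL. Cows 856 and 97 were slightly above the LF/LCL cows and cow 489215 far below, so that the log2 fold change was -0.54 with all cows and 0.35 without this cow. SLC26A1, also a sulfate transporter, had 4.19, 16.9 and 4.39 in LF/LCL and 25.8, 0 and 15.2 in SF/SCL, and its sign depended on the same cow, at -0.07 and 1.39.

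The remaining SLC26 genes were low or overlapped. SLC26A10 ranged from 35.6 to 71.1 in LF/LCL and from 18.6 to 118 in SF/SCL. SLC26A7 ranged from 9.39 to 23.7 and from 10.6 to 14.6, and SLC26A8, known from testis, from 1.76 to 23.0 and from 5.32 to 24.0. SLC26A9, a chloride transporter of airway and stomach, stayed at or under 8.78, and SLC26A5, the motor protein prestin of the inner ear, was at or under 2.09 in LF/LCL with 25.8 in cow 856, 0 in cow 489215 and 8.67 in cow 97.

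The genes whose groups did not overlap and whose log2 fold change was beyond 0.5 in size are plotted by cow.

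**Figure D4:**
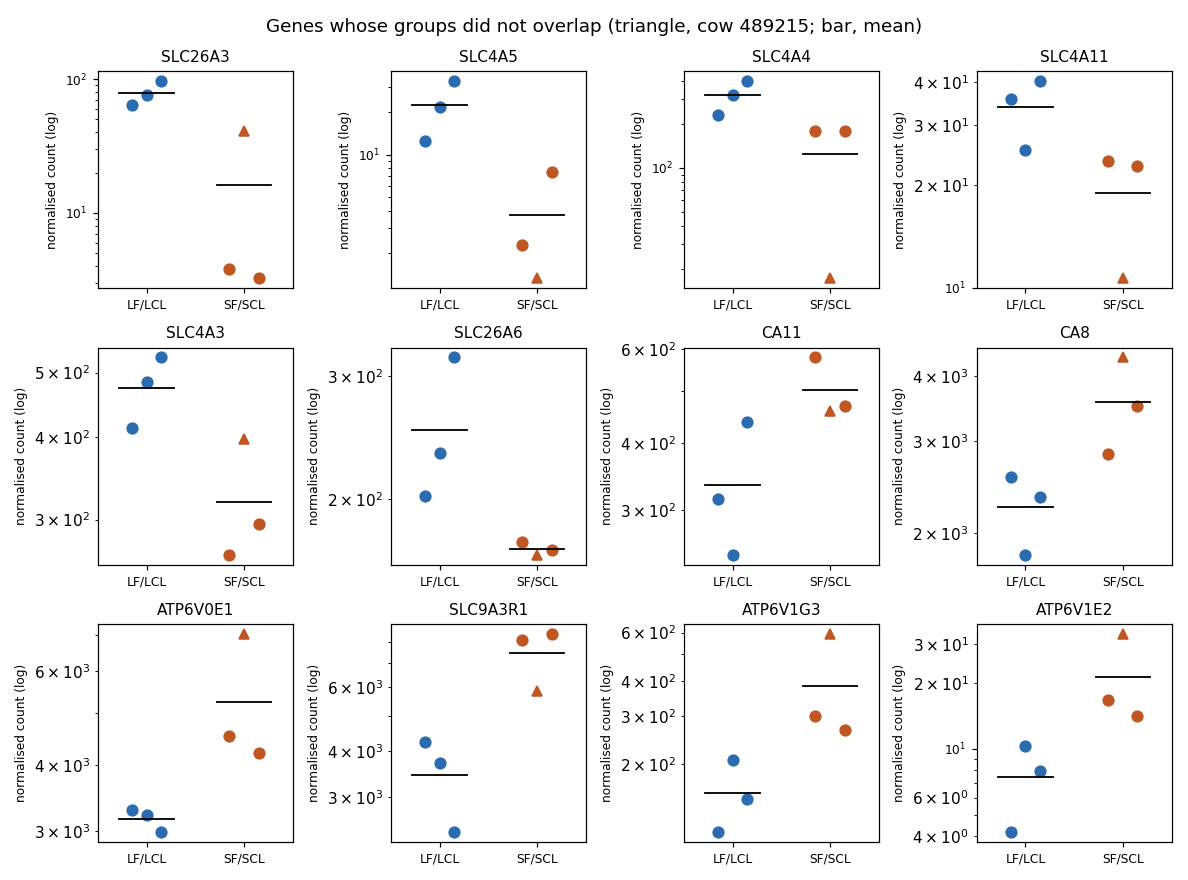
Normalised counts, on a log scale, of the genes whose LF/LCL and SF/SCL cows did not overlap and whose log2 fold change was beyond 0.5 in size, with 1 point per cow, a triangle for cow 489215, and a bar at the mean of each group. Cow 489215 lies apart from the other SF/SCL cows in SLC26A3, where it is nearer to LF/LCL, and in SLC4A4, where it is the lowest.

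The scaffold SLC9A3R1, also named NHERF1, had the smallest p-value of the 57 genes. It binds the tails of SLC26A3, SLC26A6, SLC9A3 and the chloride channel CFTR through its PDZ domains and ties them to the actin skeleton through ezrin. It had 4236, 3718 and 2401 normalised counts in LF/LCL and 8115, 5847 and 8387 in SF/SCL. Every SF/SCL cow, cow 489215 included, was above every LF/LCL cow, with means of 3452 ± 946 and 7450 ± 1395 (SD, n = 3 each). The log2 fold change was 1.13 (SE 0.27, limma adjusted p = 0.381). The adjusted p-value was 0.0270 in DESeq2, which called 2.76% of all genes tested, and 0.0147 without cow 489215, and it ran up to 0.999 over the alternatives. The general epithelial marker sum was also higher in each SF/SCL cow, and its part was not tested. The relative SLC9A3R2 had 2045, 2283 and 2081 in LF/LCL and 1480.4, 2611 and 1429 in SF/SCL. Here cows 856 and 97 were below all LF/LCL cows and cow 489215 above them, so the log2 fold change was -0.27 with all cows and -0.55 without cow 489215 (limma adjusted p = 0.0128).

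Among the sodium-proton exchangers of the plasma membrane, SLC9A5 differed most. It had 162, 303 and 397 normalised counts in LF/LCL and 94.2, 103 and 172 in SF/SCL. The groups overlapped only through cow 617, which was below cow 97, and the log2 fold change was -1.18 (SE 0.44, limma adjusted p = 0.514) and -1.07 without cow 489215. SLC9A3, the apical exchanger of gut and kidney, ranged from 9.66 to 45.1 in LF/LCL and from 3.99 to 66.1 in SF/SCL. SLC9A2, an exchanger of gut epithelium, was at 0 to 24.6 in LF/LCL and 1.33 to 4.33 in SF/SCL, and SLC9A4, known from the stomach, had 0 reads in each cow, which allows up to 3 reads per library for counting error alone.

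The organelle exchangers let protons leak out of endosomes and the Golgi against the V-ATPase. SLC9A8, of the Golgi, had 241, 233 and 213 normalised counts in LF/LCL and 387, 45.3 and 409 in SF/SCL. Cows 856 and 97 were above the LF/LCL cows and cow 489215 was far below, so the log2 fold change was -0.24 with all cows and 0.80 without cow 489215 (limma adjusted p = 0.0193). SLC9A7, of the trans-Golgi network, had 75.4, 72.3 and 133 in LF/LCL and 164, 21.3 and 256 in SF/SCL, and SLC9A9, of late endosomes, had 333, 403 and 613 in LF/LCL and 769, 278 and 543 in SF/SCL. Cow 489215 was the lowest cow for SLC9A7, SLC9A8 and SLC9A9.

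The 22 V-ATPase genes comprised 9 of the membrane sector V0, through which protons pass, and 13 of the cytosolic sector V1, which hydrolyses ATP. Of the 21 tested, 18 had a log2 fold change above 0, against 7472 of all 15387 genes tested. Cow 489215 was the highest cow for 17 of the 21 (81.0%, against 36.7% of all genes tested). Without this cow the median log2 fold change was -0.01 over the 22 subunits then tested. For the 14 isoforms that most cells use, each cow was set against the LF/LCL mean of each gene. The median ratio was 1.04, 1.00 and 0.957 in the LF/LCL cows, 0.930 in cow 856, 0.911 in cow 97 and 1.78 in cow 489215, where it ran from 0.587 to 2.30 and was above 1 for 13 of 14 genes. The medians of cows 856 and 97 were thus close to those of the LF/LCL cows, although single genes ran from 0.678 to 1.46 in cow 856 and from 0.679 to 1.33 in cow 97. Without cow 489215, 4 of these 14 genes were higher in LF/LCL and 1 in SF/SCL at a limma adjusted p under 0.05. The shares of all genes tested in that fit were 7.92% and 10.3%. Cow 489215 also had the highest smooth muscle and general epithelial marker sums and the lowest size factor. The part of each in the V-ATPase values was not tested.

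In the V0 sector, ATP6V0D1, the subunit that couples the sectors, had 5631, 5627 and 5361 normalised counts in LF/LCL and 3756, 10411 and 3759 in SF/SCL. The LF/LCL cows were nearly equal, cows 856 and 97 were lower and also nearly equal, and cow 489215 was the highest. The log2 fold change was -0.07 with all cows and -0.56 without cow 489215 (limma adjusted p = 0.00773). ATP6V0C, the proteolipid of the rotating ring, had 3030.1, 2981 and 2717 in LF/LCL and 2724, 6703 and 2608 in SF/SCL. ATP6V0A1, the widely used proton-path subunit, had 4319, 3821 and 4398 in LF/LCL and 3737, 4929 and 4048 in SF/SCL, and its groups overlapped. The exception to the pattern of cow 489215 was ATP6V0A2, the Golgi form, with 1000.6, 1121 and 916 in LF/LCL and 1254, 594 and 936 in SF/SCL.

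ATP6V0E1, a small V0 subunit, was the only widely used isoform whose groups did not overlap. It had 3293, 3222 and 2992 normalised counts in LF/LCL and 4520.3, 7027 and 4214 in SF/SCL, higher in each SF/SCL cow. The log2 fold change was 0.69 (SE 0.23, limma adjusted p = 0.471) and, without cow 489215, 0.46 with an adjusted p-value of 0.0190. ATP6V0B, another proteolipid of the ring, ranged over 1884 to 2036 in LF/LCL and 2014 to 3693 in SF/SCL with a small overlap, and ATP6V0E2, the other e subunit, over 297 to 461 and 276 to 541.

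In the V1 sector, the catalytic subunit ATP6V1A had 3909, 4029 and 3592 normalised counts in LF/LCL and 2953, 3849 and 3113 in SF/SCL. Cows 856 and 97 were below the LF/LCL cows, and the log2 fold change was -0.23 with all cows and -0.34 without cow 489215 (limma adjusted p = 0.0478). ATP6V1G1, of the peripheral stalks, had 5889.5, 5568 and 5521 in LF/LCL and 4576, 10869 and 4561 in SF/SCL. ATP6V1F, of the central stalk, had 1794, 1602 and 1744 in LF/LCL and 1322, 3816 and 1355 in SF/SCL. Both stalk genes had LF/LCL values between those of cow 489215 and those of the other SF/SCL cows. Their log2 fold changes turned from 0.11 to -0.31 and from 0.15 to -0.35 when cow 489215 was left out (adjusted p = 0.0455 and 0.0484). The remaining widely used V1 subunits, ATP6V1B2, ATP6V1C1, ATP6V1D, ATP6V1E1 and ATP6V1H, had log2 fold changes of 0.05 to 0.28 with all cows and of -0.14 to 0.05 without cow 489215.

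**Figure D5:**
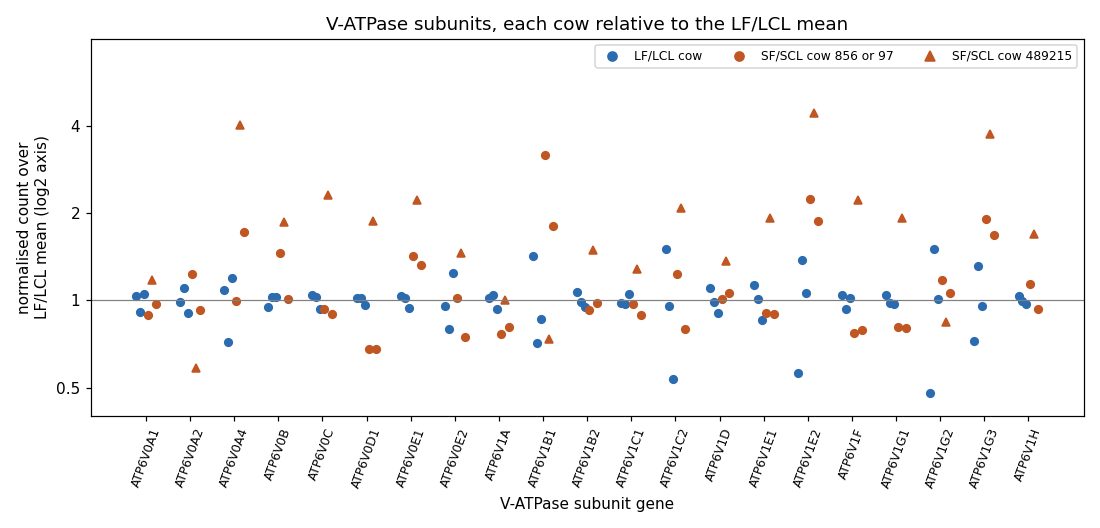
Ratio of the normalised count in each cow to the LF/LCL mean for each of the 21 V-ATPase subunits tested, on a log2 axis, with a line at 1, points for 5 cows and triangles for cow 489215. The triangle is the highest mark for 17 of the 21 subunits, and the points of cows 856 and 97 lie below 1 for ATP6V0D1, ATP6V1A, ATP6V1F and ATP6V1G1.

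The other 8 isoforms are restricted to particular cell types. The 7 of them that were tested had a median log2 fold change of 0.75. Without cow 489215 the median was 0.35 over all 8, as ATP6V0D2 was then also tested, at -1.84. These medians are therefore not over the same genes. ATP6V1B1, the form of the B subunit in acid-secreting kidney and epididymal cells, had 740.0, 373 and 451 normalised counts in LF/LCL and 1654, 382 and 944 in SF/SCL. Cows 856 and 97 were above the LF/LCL cows and cow 489215 was within their range, with a log2 fold change of 0.75 (limma adjusted p = 0.803) and 1.32 without cow 489215 (adjusted p = 0.0447). Its ratio to the widely used ATP6V1B2 was 0.230, 0.126 and 0.158 in LF/LCL and 0.594, 0.0847 and 0.320 in SF/SCL.

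ATP6V1G3, the G subunit of the same kind of cell, had 114, 207 and 150.2 normalised counts in LF/LCL and 299, 591 and 266 in SF/SCL. All SF/SCL cows were above all LF/LCL cows, with a log2 fold change of 1.24 (SE 0.41, limma adjusted p = 0.463) and 0.88 without cow 489215. Set against ATP6V1G1, it stood at 0.0194, 0.0373 and 0.0272 in LF/LCL and 0.0654, 0.0544 and 0.0582 in SF/SCL, so the ratios of the groups did not overlap either. ATP6V0A4, the corresponding form of the a subunit, had 235, 155 and 257 in LF/LCL and 215, 873 and 372 in SF/SCL. Cow 856 was within the LF/LCL range, and the ratio of ATP6V0A4 to ATP6V0A1 was 0.0405 to 0.0585 in LF/LCL and 0.0575, 0.177 and 0.0918 in SF/SCL.

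The restricted d subunit ATP6V0D2 was near the floor, at 3.14, 12.2 and 7.91 normalised counts in LF/LCL and 3.80, 1.33 and 0 in SF/SCL. FOXI1, the transcription factor that defines ionocytes and intercalated cells, was at 0 in 3 cows, at 0.939 in cow 79, at 2.66 in cow 489215 and at 12.9 in cow 856, and ASCL3 was at 0 in each cow. The 6 ionocyte-type markers, of which 3 are themselves V-ATPase genes, summed to 635 to 876 in LF/LCL and 1003 to 2020 in SF/SCL, so the list is led by the genes it would be compared with. ATP6V1E2, the E subunit known from testis, had 4.19, 10.3 and 7.91 in LF/LCL and 16.7, 33.3 and 14.1 in SF/SCL. It was higher in each SF/SCL cow, with a log2 fold change of 1.38 (SE 0.55, limma adjusted p = 0.554). ATP6V1C2 and ATP6V1G2 ranged from 8.37 to 65.2 over all cows and overlapped between the groups.

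Without cow 489215, 59 genes passed the filter and 12 of them (20.3%) had a limma adjusted p-value under 0.05, against 18.2% of all genes tested in that fit. Higher in LF/LCL were 7 (background 7.92%), namely SLC26A3, SLC4A3, SLC9A3R2, ATP6V0D1, ATP6V1A, ATP6V1F and ATP6V1G1. The 5 higher in SF/SCL (background 10.3%) were SLC9A3R1, SLC4A8, SLC9A8, ATP6V0E1 and ATP6V1B1. This fit rests on 2 SF/SCL cows, which also shared high ciliated, secretory and mesothelial marker sums and low smooth muscle and fibroblast sums, and the part of these cell types was not tested.

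Other genes of acid and bicarbonate handling, outside the families above, were examined as a list of 40 symbols, of which 39 were found and 36 passed the filter. Their median log2 fold change was -0.24 with all cows and 0.08 without cow 489215. At an unadjusted p under 0.05, 1 was higher in LF/LCL and 2 in SF/SCL (8.66% of all genes in either direction), and the groups did not overlap for 3 and 6 (8.6% and 9.51% of all genes). SLC12A2, the sodium-potassium-chloride cotransporter that loads secretory cells with chloride, had 1841, 2458 and 1565 normalised counts in LF/LCL and 817, 531 and 655 in SF/SCL. All SF/SCL cows were well below the LF/LCL cows, with a log2 fold change of -1.54 (SE 0.26, limma adjusted p = 0.351) and an adjusted p-value of 0.00845 without cow 489215. With all cows the DESeq2 adjusted p-value of SLC12A2 was 0.000147 and the edgeR adjusted p-value 0.373. CHP1, a calcium-binding partner that sodium-proton exchangers need, had 4693, 4111 and 4108 in LF/LCL and 6158, 7028 and 5321 in SF/SCL, a log2 fold change of 0.51 (limma adjusted p = 0.485). NCOA7, which binds the V-ATPase, had 1027, 988 and 1049 in LF/LCL and 1811, 1411 and 1509.7 in SF/SCL, a log2 fold change of 0.62 (limma adjusted p = 0.420).

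CFTR, the epithelial chloride and bicarbonate channel that works beside SLC26A3 and SLC26A6, was chosen for mention after its values were seen. It had 717, 661 and 859.9 normalised counts in LF/LCL and 225, 919 and 260.1 in SF/SCL. Its cows were ordered as for SLC26A3 in that cows 856 and 97 were far below the LF/LCL cows, but cow 489215 was here the highest. The log2 fold change was -0.97 (limma adjusted p = 0.708) with all cows and -1.61 without cow 489215 (adjusted p = 0.00305).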

How the data were processed

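Per the labels and the study's methods, the authors aligned paired-end reads to bovine assembly UMD3.1 with TopHat2 2.0.8 and Bowtie2 2.1.0 and counted uniquely mapped reads per gene with HTSeq 0.5.4p2. The deposited signal values are those counts divided by the DESeq 1.12.1 size factor of each library, and all were whole reads within 0.1 read once multiplied back. Whether counting used strand is not given in the sources used here. Genes with a mean above 5 and above the SD were tested, as in the study's methods, with limma 3.58.1 (trend, robust; R 4.3.3) on log2(value + 1), which understates changes of low genes, with Benjamini-Hochberg adjustment over all genes tested. Alternatives were count models on the recovered reads (edgeR 4.0.16, DESeq2 1.42.0, limma-voom), other filters, pseudocounts and scalings, and leaving out each cow. Intervals and floors cover counting error only.

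Genes were named cow by cow if among the 3 highest means of a family, at an unadjusted p under 0.05, without overlap and beyond 0.5 in log2 fold change, or among the 3 highest or 3 lowest log2 fold changes without cow 489215. Genes past the adjusted threshold without that cow, and the remaining members, were added after values were seen. The members and lists were chosen with earlier results of these data known. Symbols are those of the deposited table, 64 of 68 matched RefSeq, and no sequence or coordinate is printed. The values of 2 members are not reported here one by one, though they entered the fits and counts.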

Additional observations from a re-analysis of the deposited data

How the results depend on the processing

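Over the alternatives, family medians and counts gave 139 values within the spread of the reported ones or within 1.5 times the reported count, and 14 outside. The 8 genes at an unadjusted p under 0.05 were 5 with a filter at a mean above 50, and 5 to 22 with a cow left out. The count past the adjusted threshold was 1 in DESeq2 and ran from 0 to 12 with a cow left out, with the 12 obtained without cow 489215, where the genes without overlap were 29 (12 to 29 over the cows left out). The median log2 fold change of the SLC26 family was -0.024 in edgeR and -0.022 in DESeq2, and -0.767 to 0.032 with a cow left out. The carbonic anhydrase median turned from -0.153 in limma to 0.142 in edgeR and 0.163 in DESeq2.

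Signs were compared for the genes named for their level, p-value, overlap or fold change. Among these, log2 fold changes changed sign for ATP6V0D1 (0.089 in edgeR, 0.106 in DESeq2, -0.56 to 0.176 with a cow left out), CA2 (0.142, 0.163, -1.444 to 0.361), SLC9A8 (0.297, 0.299, -0.776 to 0.797) and SLC26A1 (0.724, 0.705, -0.981 to 1.391, and 0.24 with a pseudocount of 5). With a cow left out they also did so for ATP6V1F (-0.354 to 0.41), ATP6V1G1 (-0.308 to 0.318), SLC26A2 (-1.014 to 0.35) and SLC4A7 (-0.424 to 0.067). Outside these named genes, CA4, CA9, CA12, SLC26A10 and SLC9A3 turned from negative in limma to positive in both edgeR and DESeq2. The cause was not tested. No paired analysis was possible because the groups share no cow numbers. With 3 cows a group, 1 of which stands apart, and bulk tissue of varying make-up, differences of the size seen within a group could not be resolved, and genes with under 5 normalised counts were not tested.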
